A study of Tribolium castaneum with 9 samples.

Results

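In 1623 of 5358 genes tested, the fat body and the Malpighian tubules of adult red flour beetles exposed to carbonyl sulfide (COS) lay together on one side of the untreated whole body. The rule asked that the level in all 6 organ libraries be above, or all 6 below, the mean of the 3 whole-body libraries. By it 615 genes were higher in both organs and 1008 were lower in both, while 3735 genes did neither. The study measured RNA by sequencing in Tribolium castaneum, a beetle pest of stored grain, in 9 libraries. COS is a fumigant gas. The groups were COS fat body (3 libraries), COS Malpighian tubules (3 libraries) and control whole body (3 libraries), all from adults of a phenotype labelled susceptible. The labels give no dose, time, sex or strain, do not say what the 70 in the fat body titles stands for, and do not say whether replicates came from separate animals, so p-values reflect only how far these libraries spread, which may be technical.

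Every organ library came from treated beetles and every control library from untreated whole beetles, so exposure and dissection cannot be told apart in any comparison below. Nor can fewer cells of a type be told apart from less RNA per cell. The insect fat body stores lipid and protein and carries much of intermediary metabolism and detoxification. The Malpighian tubules form urine and excrete wastes and foreign compounds. Detoxification usually runs from oxidation by cytochrome P450s, through conjugation by glutathione S-transferases and UDP-glucuronosyltransferases, to export by ABC transporters. In insects carbonic anhydrase is known to turn COS into hydrogen sulfide.

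The library totals were 16125682 to 18174747 reads in fat body, 15175796 to 19866421 in tubules and 13435869 to 14803877 in whole body. The deposited table lists 5467 genes, all of them past a log2 fold of 1 (up or down) in 1 or more of the authors' 3 comparisons, so the genes were chosen on these same samples and the counts below are a description of a chosen list. Levels are given as CPM, the reads of a gene scaled to a fixed library total, with TMM factors, which align the bulk of the listed genes between libraries. The organ labels held against the sums of their markers. The 12 fat body markers summed to 17191 to 26397 CPM in fat body and 4693 to 6500 CPM in whole body. The 30 tubule markers summed to 6408 to 8508 CPM in tubules and 2356 to 2585 CPM in whole body. Single markers differed, and 4 of the 12 fat body markers were lower and 1 higher in all 6 organ libraries. Muscle markers were high in the fat body libraries: 44 such genes summed to 53026 to 65145 CPM there, against 23948 to 24644 CPM in whole body. Markers of gut digestion were also high in the tubule libraries: 72 such genes summed to 2234 to 2417 CPM in fat body and 8797 to 15416 CPM in tubules, against 4158 to 5373 CPM in whole body. Their part in the tubule results was not tested. Control replicate 3 and fat body replicate 1 stood apart within their groups in the summed level of sperm and testis genes, as described below.

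Averaged over the organs with equal weight, edgeR's quasi-likelihood test called 2627 genes, which is 49% of those tested, at an adjusted p under 0.05. Of these, 1180 genes were higher in the organs (22%) and 1447 were lower (27%). Yet 1309 of the 2627 called genes did not have all 6 organ libraries on one side, and the log2 fold changes of the 2 organs had opposite signs in 3166 genes (59.1%). This test takes its error from the spread within each organ, not between organs. When the 6 organ libraries were fitted as 1 group, so that the difference between organs entered the error, 15 genes passed as higher and 59 as lower. Leaving out any 1 control cut the calls. The lower calls went from 1447 to 1023, 1083 and 906 without control replicate 1, 2 and 3. The higher calls went from 1180 to 845, 836 and 816. The division of the calls moved with the scaling, to 838 higher and 1909 lower with upper-quartile factors, 866 and 1885 with the authors' size factors, and 759 and 2156 with library totals alone. With RLE factors it was 1236 higher and 1279 lower. Against TMM the upper-quartile, authors' and total scalings shifted the median pooled log2 fold change of all genes by -0.18, -0.16 and -0.25, and RLE factors shifted it by 0.12.

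The 615 genes on the higher side are 11.5% of those tested and the 1008 on the lower side are 18.8%. Since the rule reads the same libraries as the pooled test, the 592 higher and 726 lower genes that passed that test are no separate support. The 6 organ libraries did not overlap the 3 controls in 464 of the higher genes (8.66% of all genes tested) and in 578 of the lower genes (10.8%). The higher side depended more on scaling, with 318 of 615 genes holding under all 5 scalings, against 877 of 1008 on the lower side. Taken over each organ alone, 371 higher and 272 lower genes passed in both organs. Over all genes tested, 647 (12.1%) passed in both with the same sign, a set made up almost wholly of these genes. The rule reads the same libraries as these tests too, so these counts are no separate support either. The median pooled log2 fold change was 1.05 for the higher genes, -1.42 for the lower genes and -0.14 for all genes.

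**Figure D1:**
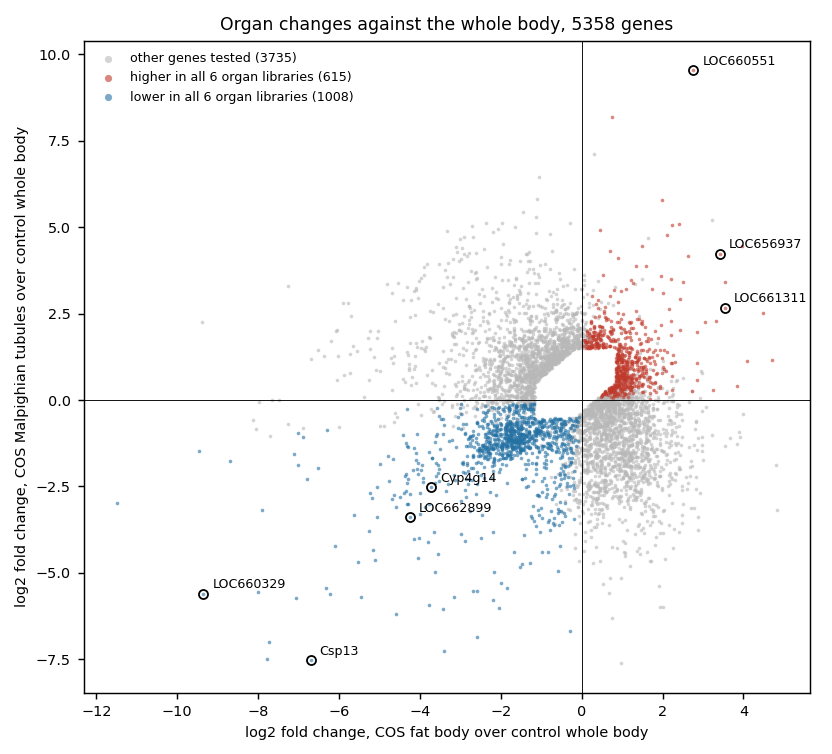
Each point is a gene, at its log2 fold change in COS fat body (horizontal) and COS Malpighian tubules (vertical) over control whole body; red marks the 615 genes higher and blue the 1008 genes lower in all 6 organ libraries, grey the other 3735. The space around the origin is empty because the table lists only genes past the authors' fold minimum, and both axes share the control libraries.

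The higher genes took 7.07% to 8.06% of all reads in fat body and 7.69% to 7.999% in tubules, against 4.06% to 4.52% in whole body. The lower genes took 5.17%, 2.69% and 2.97% in fat body and 3.99%, 4.46% and 2.77% in tubules, against 9.76%, 10.04% and 13.4% in whole body. The groups did not overlap in either set, as the rule all but fixes. The higher genes had longer gene models (median 4916 bases) than the lower genes (2710 bases) or all genes tested (3515 bases). The deposited table gave no function for 91 of the 615 higher genes and 306 of the 1008 lower genes, against 1281 of all 5358.

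At the edge of the rule, succinyl-CoA ligase LOC661403 was just inside the higher side with a lowest organ library of 89.6 CPM against a control mean of 89.5 CPM. Syndecan LOC660140 was just outside with 186.1 CPM against 186.2 CPM. On the lower side the RNA polymerase I subunit LOC103313887 was just inside, its highest organ library at 66.0 CPM against a control mean of 66.5 CPM, and the mitochondrially encoded NADH dehydrogenase subunit 5 (KEF75_p06) was just outside at 9901 CPM against 9891 CPM.

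**Figure D2:**
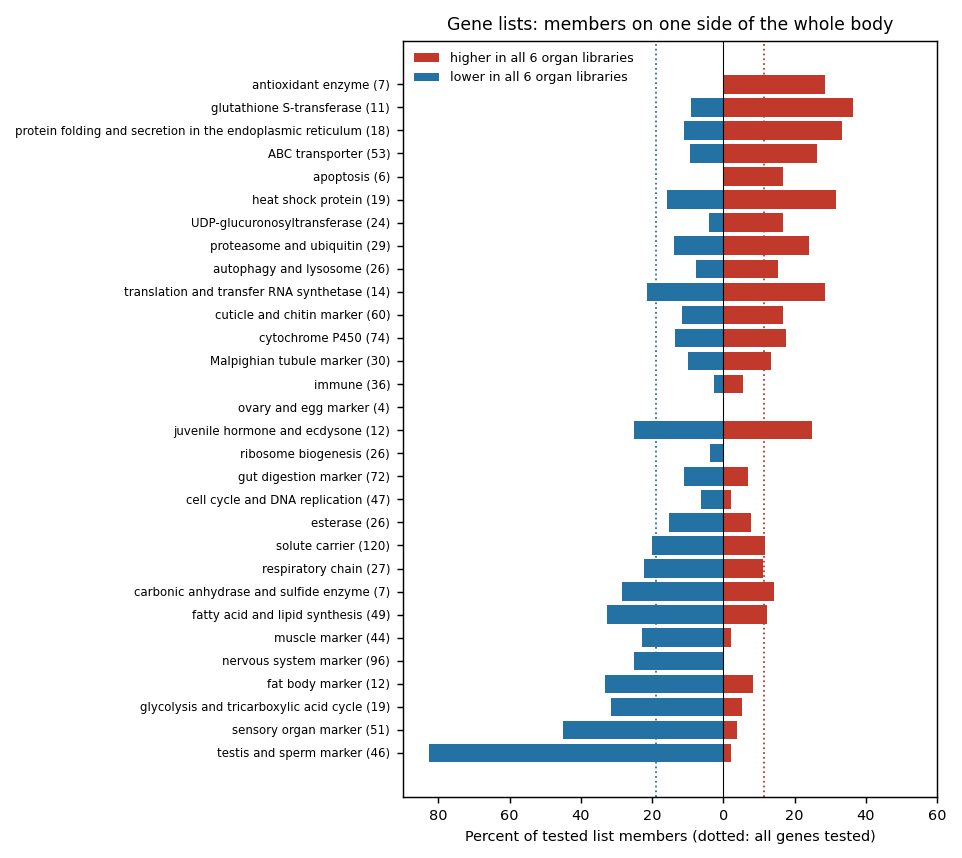
Bars give the percent of each gene list's tested members (number in brackets) that were higher (right, red) or lower (left, blue) in all 6 organ libraries than the control mean; dotted lines give 11.5% and 18.8%, the same over all genes tested. ABC transporters lean to the right and testis and sensory genes to the left.

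Export pumps leaned to the higher side, where 11.5% of all genes tested lay. Of 53 ABC transporters tested, 14 were higher and 5 lower in all 6 organ libraries, or 13 and 2 without control replicate 3. In the pooled test 27 passed as higher and 4 as lower, against 22% and 27% of all genes tested. The list's median pooled log2 fold change was 0.64, and 0.40 to 0.75 under the other scalings. Among 17 genes that share the name of one Drosophila multidrug resistance-associated protein, and which belong to the C family of ABC transporters that export conjugated compounds, 6 were higher and 1 was lower. LOC656937 had 37.1, 39.6 and 91.7 CPM in fat body and 131, 97.7 and 67.6 CPM in tubules, against 7.06, 3.54 and 5.201 CPM in whole body. Every organ library of this gene was more than 5 times any control, and its pooled log2 fold change was 3.82 ± 0.44 (SE), with an edgeR adjusted p of 0.000367. LOC657102 had 21.9, 22.2 and 18.2 CPM in fat body and 72.8, 64.3 and 41.9 CPM in tubules, against 3.50, 2.78 and 3.76 CPM in whole body. It rose by 3.39 ± 0.24 (adjusted p = 5.88e-05), and here the 2 organs also differed, with fat body below tubules in every library.

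These 2 genes lie in a run of 4 such genes, LOC657184, LOC657102, LOC657021 and LOC656937, that are next to each other in RefSeq's order on the icTriCast1.1 assembly and were all on the higher side. LOC657021, chosen with its place in that run known, had 7.13, 12.3 and 20.9 CPM in fat body and 110.0, 120.0 and 85.0 CPM in tubules, against 4.67, 4.18 and 5.58 CPM in whole body. LOC657184 had the smallest pooled change of the run, 1.13 ± 0.22, and its control replicate 3 (76.7 CPM) lay above all 3 fat body libraries, the highest of which had 73.2 CPM. It is not given how reads shared by close copies were counted, so the division of reads within this family, and within the other families of near copies named here, is uncertain.

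Cytochrome P450s went both ways. Of 74 tested, 13 were higher and 10 lower in all 6 organ libraries, and 28 passed as higher and 17 as lower in the pooled test. Their median was 0.22, and -0.03 with library totals alone. CYP346B2 had 76.1, 58.0 and 58.6 CPM in fat body and 21.97, 56.1 and 14.2 CPM in tubules, against 4.73, 6.58 and 7.77 CPM in whole body. It rose by 2.80 ± 0.45 (adjusted p = 0.00157), with fat body above tubules in every library, though tubule replicate 2 came close to it. Cytochrome P450 6a2 (LOC656770), from the family most often tied to insecticide metabolism in insects, had 81.8, 67.3 and 53.5 CPM in fat body and 217, 238 and 165 CPM in tubules, against 18.1, 17.6 and 15.9 CPM in whole body. Its pooled change was 2.78 ± 0.20 (adjusted p = 5.99e-05), with the tubules highest and no overlap among the 3 groups. Among the 10 lower P450s, Cyp4g14 and Cyp4g7 are described further on. The other 8 include P450 4C1, 4c3, 6a20, 9e2 and 305a1 genes.

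Conjugating enzymes had members on both sides. Of 11 glutathione S-transferases, which attach glutathione to reactive compounds, 4 were higher and 1 lower in all organ libraries, and the same numbers passed the pooled test. Under other scalings 3 to 4 were higher and 0 to 3 lower. LOC659302, with the highest mean TPM (a level per gene length) of the higher genes that could be named, had 702, 483 and 411 CPM in fat body and 527, 681 and 440 CPM in tubules, against 193, 161 and 129 CPM in whole body. It rose by 1.75 ± 0.24 (adjusted p = 0.000741), and the organs were not told apart (fat body minus tubules -0.05, 95% interval -0.62 to 0.52). Of 24 UDP-glucuronosyltransferases, which attach sugars, 4 were higher and 1 lower, or 3 to 5 higher and 1 to 3 lower under other scalings. LOC660678 had 63.2, 62.8 and 56.2 CPM in fat body and 36.6, 84.9 and 38.99 CPM in tubules, against 19.8, 17.6 and 20.3 CPM in whole body, a rise of 1.57 ± 0.28 (adjusted p = 0.00263). The lists' medians were -0.10 for the transferases of glutathione, which turned positive (0.02) with RLE factors, and 0.26 for those of sugars.

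Of 26 esterases, which hydrolyse esters including insecticides, 2 were higher and 4 lower in both organs, and 11 passed as lower against 4 as higher. Venom carboxylesterase-6 (LOC660964) had 9.33, 6.87 and 3.31 CPM in fat body and 15.9, 17.03 and 14.6 CPM in tubules, against 41.7, 31.9 and 41.6 CPM in whole body. It fell by 1.92 on the log2 scale (SE 0.27, adjusted p = 0.000809). Among 7 genes for carbonic anhydrases and sulfide enzymes, 1 was higher and 2 were lower, or 1 lower without control replicate 3. In the pooled test 1 passed as higher and 4 as lower, and the median pooled log2 fold change was -0.94. Carbonic anhydrase 14-like (LOC103315169), on the lower side, had 18.2, 1.14 and 4.79 CPM in fat body and 16.6, 17.2 and 6.96 CPM in tubules, against 34.8, 39.6 and 68.1 CPM in whole body (pooled change -2.18, SE 0.64, adjusted p = 0.0222). Carbonic anhydrase 3 (LOC658710), also on the lower side, did not pass (-1.15, adjusted p = 0.118). In both genes control replicate 3 was the highest control and fat body replicate 1 the highest fat body library. The higher member, carbonic anhydrase 1 (LOC658563), like these chosen after its values were seen, had 25.2, 23.4 and 23.4 CPM in fat body and 55.3, 48.8 and 68.8 CPM in tubules, against 16.3, 14.9 and 12.4 CPM in whole body (pooled change 1.35 ± 0.17, adjusted p = 0.000494).

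Antioxidant and chaperone genes had members on the higher side. Of 7 antioxidant enzymes 2 were higher and 0 lower. In the pooled test 4 of them passed as higher and 2 as lower, against 22% and 27% of all genes tested. The probable phospholipid hydroperoxide glutathione peroxidase LOC658456, which reduces lipid peroxides, had 214, 231 and 220 CPM in fat body and 186, 213 and 202 CPM in tubules, against 121, 125 and 122 CPM in whole body. This was the smallest rise among the named genes, 0.78 ± 0.11 (adjusted p = 0.000809), with libraries of each group close together. Of 19 heat shock genes, 6 were higher, or as few as 3 under other scalings, and 3 lower in both organs. Of the 19, 6 passed the pooled test as higher and 4 as lower. Protein lethal(2)essential for life (LOC664276), named after a Drosophila small heat shock protein, had 2.27, 2.16 and 2.57 CPM in fat body and 34.7, 5.92 and 9.16 CPM in tubules, against 0.518, 0.570 and 0.376 CPM in whole body. It rose by 3.65 ± 0.66 (adjusted p = 0.00258), most in tubule replicate 1.

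Heat shock protein 23 (LOC662134), also a small chaperone, lay on the other side, with 4.73, 4.49 and 3.24 CPM in fat body and 3.77, 6.56 and 2.47 CPM in tubules, against 6.999, 7.02 and 17.5 CPM in whole body. Its pooled change of -1.32 (SE 0.38, adjusted p = 0.0207) lost its call without control replicate 3, when the pooled change was -0.70 with an adjusted p of 0.148. In the endoplasmic reticulum list, 6 of 18 genes for folding and secretion were higher and 2 lower, and 10 passed as higher. Of 5 genes for the translocon-associated protein complex, which helps new proteins into the reticulum, 4 were among the 6 (chosen after their values were seen). The other, a second subunit delta gene (LOC663710), was below whole body in fat body and above it in tubules. Subunit delta (LOC658171) had 45.8, 60.9 and 63.9 CPM in fat body and 143, 220.2 and 201 CPM in tubules, against 38.1, 37.8 and 36.97 CPM in whole body. With other scalings as few as 2 of the 18 genes stayed on the higher side.

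Of 120 solute carriers, 14 were higher and 24 lower in all 6 organ libraries, shares close to those of all genes tested, with 6 to 18 higher under other scalings. Tret1-type transporters carry trehalose, the main blood sugar of insects. The Tret1-2 homolog LOC655291 had 39.98, 39.7 and 38.6 CPM in fat body and 197, 211 and 165 CPM in tubules, against 13.1, 13.8 and 12.03 CPM in whole body. It rose by 2.74 ± 0.15 (adjusted p = 1.69e-05), with tight replicates and the tubules highest. It is flanked in RefSeq's order by 2 more Tret1 genes on the higher side, LOC655376 (2.16 ± 0.22) and LOC655214 (2.68 ± 0.36), of which LOC655214 was not held on that side by all scalings. Another Tret1 gene, LOC657849, lay low in every library, with 0.200, 0.114 and 0.0675 CPM in fat body and 0.103, 0.361 and 0.0669 CPM in tubules, against 0.713, 1.14 and 0.752 CPM in whole body, and fell by 2.51 (SE 0.46, adjusted p = 0.00297) on 6 fat body reads in all.

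Synaptic vesicle glycoprotein 2B (LOC661311), a name given to a transporter-like membrane protein, had 355, 587 and 783 CPM in fat body and 262, 350 and 329 CPM in tubules, against 40.2, 69.4 and 38.04 CPM in whole body. Its rise was 3.11 ± 0.33 (edgeR adjusted p = 0.000262), with no overlap between organs and controls, as required of every named gene. Cathepsin L1 (LOC660551), a lysosomal and digestive cysteine protease, had 17.2, 4.94 and 7.56 CPM in fat body and 778, 1435 and 1023 CPM in tubules, against 0.194, 0.633 and 3.51 CPM in whole body. The pooled change of 6.15 ± 0.89 (adjusted p = 0.000935) thus joins a low level in fat body to a very high one in tubules, the libraries in which gut digestion markers were also high. Of 26 autophagy and lysosome genes, the list that holds it, 4 were higher and 2 lower.

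Some genes of lipid storage and an acyl-CoA ligase gene were higher in both organs, unlike most of the fatty acid synthases described further on. Lipid storage droplets surface-binding protein 1 (LOC660518), a coat protein of lipid droplets, had 565, 470.0 and 305 CPM in fat body and 626, 375 and 719 CPM in tubules, against 138, 219 and 97.9 CPM in whole body. It rose by 1.74 ± 0.34 (edgeR adjusted p = 0.00355), and the libraries of the 2 organs overlapped each other. Diacylglycerol O-acyltransferase 1 (LOC664028), which makes the final bond of triglycerides, had 181, 167 and 159 CPM in fat body and 152, 105 and 177 CPM in tubules, against 54.2, 61.6 and 48.1 CPM in whole body, a rise of 1.52 ± 0.19 (adjusted p = 0.000496). 4-coumarate--CoA ligase 1 (LOC658566), an enzyme of the acyl-CoA ligase family, had 104, 74.0 and 80.9 CPM in fat body and 90.1, 101 and 82.3 CPM in tubules, against 16.01, 17.7 and 21.8 CPM in whole body. It rose by 2.26 ± 0.18 (adjusted p = 8.04e-05), and the organs were not told apart (fat body minus tubules -0.08, 95% interval -0.50 to 0.35). The 9 genes named 4-coumarate--CoA ligase went both ways, with 2 higher and 2 lower in all 6 organ libraries. In the pooled test 3 of them passed as higher and 3 as lower, and their median pooled log2 fold change was -0.27.

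**Figure D3:**
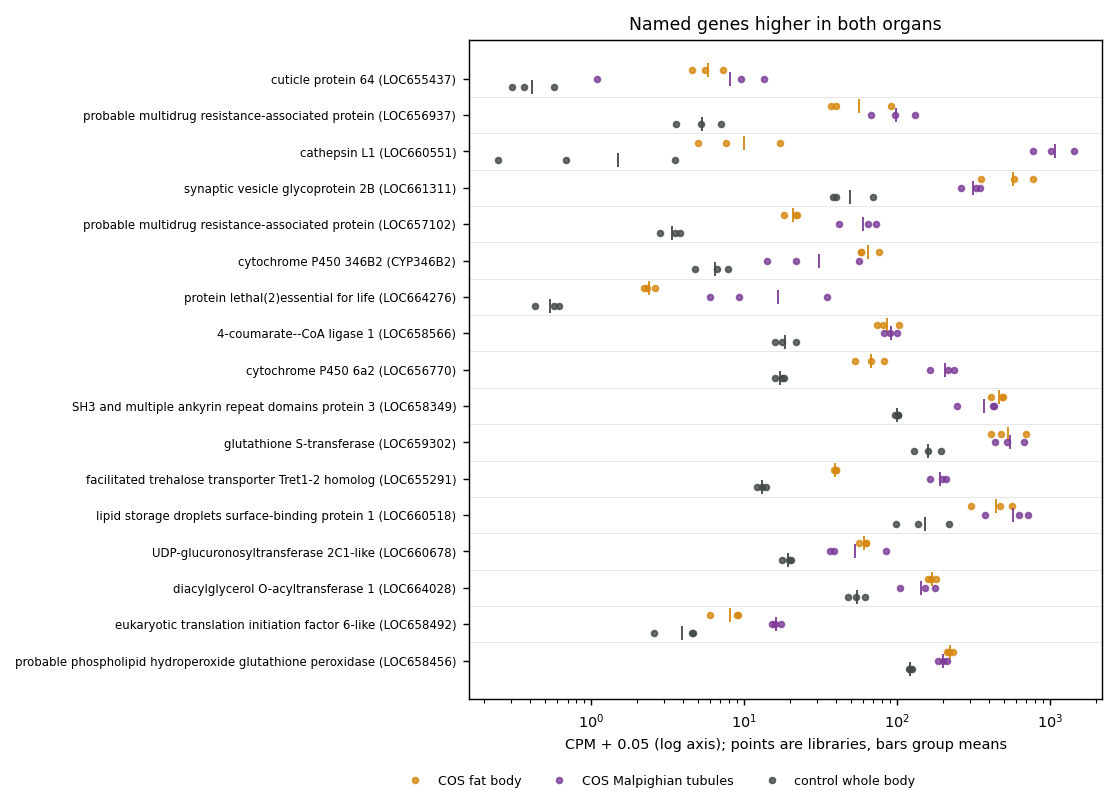
CPM plus 0.05 on a log axis for the 17 named genes higher in both organs, with one point per library and a bar at each group mean, in the order COS fat body, COS Malpighian tubules, control whole body. No organ point reaches the control points in any of the 17 genes, as the naming rule required, and cathepsin L1 shows the widest gap between organs.

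The remaining named genes on the higher side have other roles. SH3 and multiple ankyrin repeat domains protein 3 (LOC658349), named after a synaptic scaffold of vertebrates, had 410, 498 and 490 CPM in fat body and 428, 248 and 434 CPM in tubules, against 97.5, 102 and 102 CPM in whole body, and rose by 2.05 ± 0.20 (adjusted p = 0.000206). Eukaryotic translation initiation factor 6-like (LOC658492), a factor of the large ribosomal subunit, had 9.13, 5.96 and 8.98 CPM in fat body and 17.4, 15.1 and 15.8 CPM in tubules, against 4.60, 4.49 and 2.51 CPM in whole body, and rose by 1.56 ± 0.26 (adjusted p = 0.00187). Cuticle protein 64 (LOC655437) had 5.53, 4.54 and 7.22 CPM in fat body and 1.03, 13.5 and 9.56 CPM in tubules, against 0.518, 0.253 and 0.313 CPM in whole body, and rose by 4.20 ± 0.82 (adjusted p = 0.00382). In the cuticle and chitin list 10 of 60 genes were higher and 7 lower. The summed level of that list was 2028 to 2061 CPM in fat body and 4091 to 6066 CPM in tubules, against 1657 to 1727 CPM in whole body.

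With the 6 organ libraries fitted as 1 group, 8 of the 17 named higher genes no longer passed. These were LOC660551 (adjusted p = 0.139), CYP346B2 (0.0604), LOC664276 (0.119), LOC655291 (0.0926), LOC660518 (0.0879), LOC660678 (0.0933), LOC658492 (0.149) and LOC658456 (0.179).

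The lower side held 18.8% of all genes tested and a larger share of the enzymes that build fatty acids, alcohols and other lipids. Of 49 genes for fatty acid and lipid synthesis, 16 were lower and 6 higher in all 6 organ libraries, and the 16 lower ones held under all 5 scalings. Of 7 fatty acid synthases 6 were lower. LOC662899, named by the rule, had 163, 49.8 and 84.1 CPM in fat body and 207, 161 and 169 CPM in tubules, against 1460, 1627 and 2551 CPM in whole body. It fell by 3.82 (SE 0.34, adjusted p = 0.000116), and the other 5 (LOC658944, LOC660113, LOC659179, LOC658024 and LOC660178) had pooled log2 fold changes of -3.78, -3.48, -3.36, -3.09 and -2.38. Fatty acyl-CoA reductases, which turn fatty acids into alcohols, had 6 of 13 genes named putative fatty acyl-CoA reductase CG5065 on the lower side and 1 on the higher. LOC659392 had 0.133, 0 and 0.135 CPM in fat body and 0.155, 0.216 and 0.0669 CPM in tubules, against 14.8, 15.7 and 28.5 CPM in whole body. It fell by 7.37 (SE 0.45, adjusted p = 2.56e-05), on 4 fat body reads in all.

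Of the P450s of the 4G family, Cyp4g14 and Cyp4g7 were lower in both organs. A Drosophila member of this family makes the final step of cuticular hydrocarbon synthesis in oenocytes. Cyp4g14 had 306, 219 and 338 CPM in fat body and 472, 668 and 846 CPM in tubules, against 4816, 3381 and 3195 CPM in whole body. It fell by 3.12 (SE 0.22, adjusted p = 5.57e-05), with fat body below tubules in every library. Cyp4g7 had 34.1, 14.6 and 24.6 CPM in fat body and 38.7, 70.0 and 73.2 CPM in tubules, against 466, 335 and 376 CPM in whole body, a pooled change of -3.35 (SE 0.28, adjusted p = 9.49e-05). Not every gene of the family did so: cytochrome P450 4g15 (LOC103315054), chosen after its values were seen, was on the higher side at 1.29.

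Sensory genes were the list with the largest share on the lower side after testis genes. Of 51 tested, 23 were lower and 2 higher in all organ libraries, and 30 passed as lower and 1 as higher in the pooled test, with a median pooled log2 fold change of -1.50. In 21 of the 51 the log2 fold changes of the 2 organs had opposite signs. The list's summed level was 2137 to 2332 CPM in fat body and 639 to 927 CPM in tubules, against 1933 to 2144 CPM in whole body, so the fat body sum was not below the controls. Ejaculatory bulb-specific protein 3 (LOC103313838), a member of the chemosensory protein family despite its name, had 0.9996, 0.511 and 0.338 CPM in fat body and 0.879, 0.793 and 0.602 CPM in tubules, against 122, 109.9 and 180.0 CPM in whole body. It fell by 7.63 (SE 0.30, adjusted p = 2.36e-06), the largest fall in the weaker organ among the genes tested. Chemosensory protein Csp13 had 0.467, 0.341 and 3.92 CPM in fat body and 0.310, 0.721 and 1.67 CPM in tubules, against 163, 205 and 119 CPM in whole body, a pooled change of -7.11 (SE 0.72, adjusted p = 0.000207). The eye genes ultraviolet opsin (LOC658900), rhodopsin 1/6-like (LOC661924) and an arrestin homolog (LOC657618), chosen after their values were seen, had pooled log2 fold changes of -5.91, -4.48 and -4.23.

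Of 96 nervous system markers tested, 24 were lower and 0 higher in both organs, and 47 passed as lower and 2 as higher. In 57 of the 96 the organs' log2 fold changes had opposite signs. With the scalings the number on the lower side ran between 15 and 32. Their summed level was nevertheless 2070 to 2644 CPM in fat body and 1069 to 1169 CPM in tubules, against 1868 to 1935 CPM in whole body, so the sum in fat body lay above the controls. Neuropeptide-like protein 31 (LOC103313256) had 0.0666, 0.170 and 0.203 CPM in fat body and 0.103, 0.144 and 0.401 CPM in tubules, against 1.10, 1.08 and 1.003 CPM in whole body. It fell by 2.54 (SE 0.40, adjusted p = 0.00148) on few reads. Microtubule-associated protein 1B (LOC660329), named after a cytoskeletal protein of vertebrate neurons, had 0.933, 0.114 and 0.203 CPM in fat body and 8.63, 4.98 and 3.08 CPM in tubules, against 289, 312 and 215 CPM in whole body, and fell by 7.48 (SE 0.49, adjusted p = 3.51e-05).

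**Figure D4:**
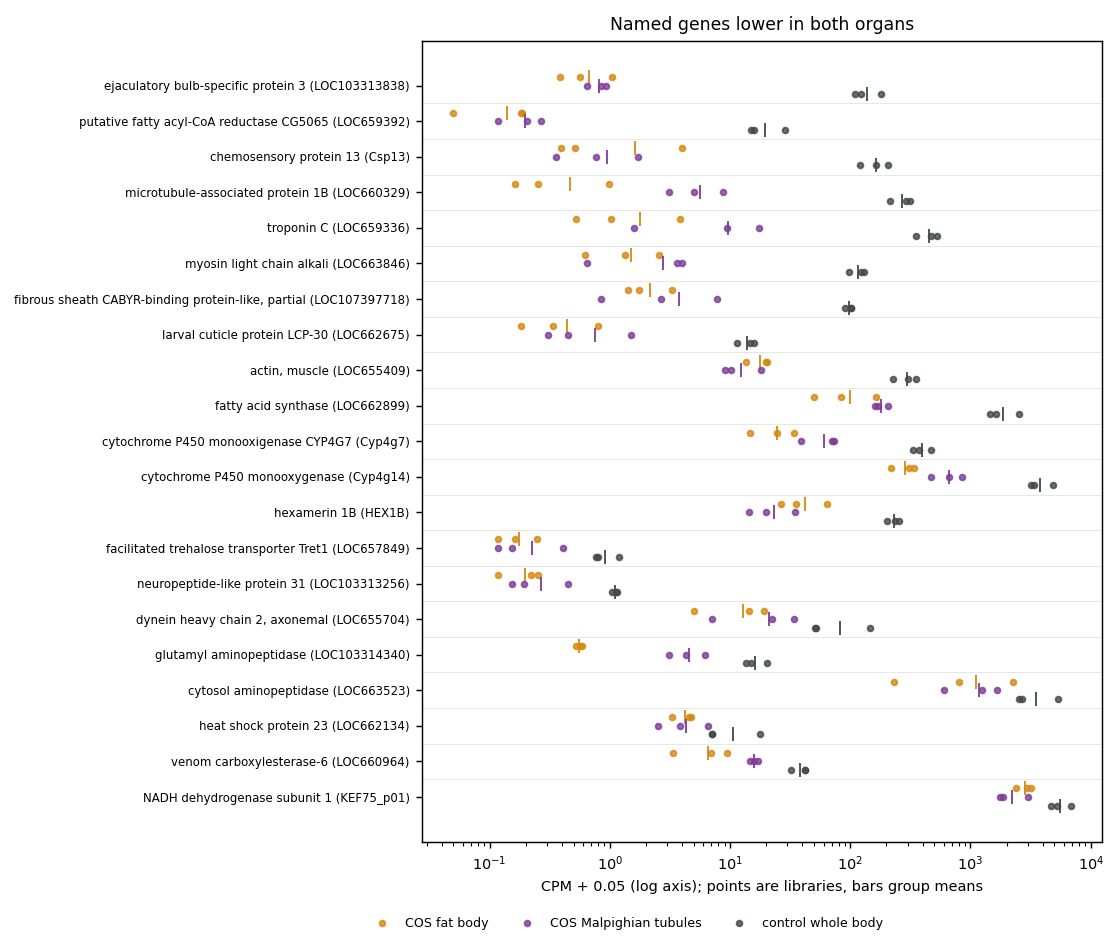
CPM plus 0.05 on a log axis for the 21 named genes lower in both organs, with one point per library and a bar at each group mean, in the order COS fat body, COS Malpighian tubules, control whole body. Cytosol aminopeptidase and heat shock protein 23 have the least distance between organ and control points.

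Muscle genes showed 2 patterns. Of 44 tested, 10 were lower and 1 higher in both organs, and 29 passed as lower and 2 as higher. Yet the list's summed level was 53026 to 65145 CPM in fat body and 5185 to 5965 CPM in tubules, against 23948 to 24644 CPM in whole body, so the sum was above the controls in the fat body libraries. The part of muscle tissue in the fat body results was not tested. Troponin C (LOC659336), the calcium sensor of muscle filaments, had 3.80, 0.966 and 0.472 CPM in fat body and 17.5, 9.45 and 1.54 CPM in tubules, against 465, 527 and 354 CPM in whole body. Myosin light chain alkali (LOC663846) had 2.53, 0.568 and 1.28 CPM in fat body and 3.57, 3.97 and 0.602 CPM in tubules, against 122, 130.1 and 98.4 CPM in whole body. Muscle actin LOC655409 had 19.9, 13.6 and 20.1 CPM in fat body and 17.9, 9.09 and 10.1 CPM in tubules, against 227, 351 and 304 CPM in whole body.

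These 3 contractile genes had pooled log2 fold changes of -6.78 (SE 0.73), -5.88 (SE 0.53) and -4.30 (SE 0.25), with adjusted p of 0.00028, 0.000127 and 2.42e-05 in edgeR. Flightin (LOC657758), a protein of insect flight muscle that was chosen after its values were seen, had 100.02, 63.8 and 62.1 CPM in fat body and 17.6, 9.16 and 3.01 CPM in tubules, against 497, 466 and 399.7 CPM in whole body.

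Of 5 hexamerin genes, 4 were lower in both organs. Hexamerins are blood storage proteins made by the fat body of larvae and carried into the adult. HEX1B had 64.0, 26.6 and 35.5 CPM in fat body and 34.99, 20.1 and 14.3 CPM in tubules, against 253, 204 and 235 CPM in whole body. It fell by 2.89 (SE 0.32, adjusted p = 0.000301), and HEX2, HEX1A and HEX3 had pooled changes of -2.06, -2.13 and -1.86. The other, HEX5, had 116, 110.1 and 151 CPM in fat body and 11.4, 15.6 and 17.4 CPM in tubules, against 65.8, 59.2 and 57.8 CPM in whole body, so it lay above the controls in fat body and below them in tubules. HEX1B, HEX2, HEX1A and HEX3 are the 4 fat body markers of 12 on the lower side, whereas the list's sum was higher in fat body than in whole body. HEX2, HEX1A and HEX1B are adjacent in RefSeq's order. Larval cuticle protein LCP-30 (LOC662675) had 0.133, 0.284 and 0.743 CPM in fat body and 0.258, 1.44 and 0.401 CPM in tubules, against 15.8, 14.7 and 11.3 CPM in whole body, and fell by 4.75 (SE 0.51, adjusted p = 0.000267).

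Testis and sperm genes had the largest share on the lower side of any list, 38 of 46, with 1 on the higher side, but only 15 passed as lower. The list holds cilium genes that sensory neurons also use. Its summed level was 2223, 514 and 1055 CPM in fat body and 1923, 2329 and 976 CPM in tubules, against 2474, 2428 and 6376 CPM in whole body. Control replicate 3 was thus more than 2 times the other controls, and fat body replicate 1 more than 2 times the other fat body libraries. Without control replicate 3, 17 of the 46 were on the lower side. The axonemal dynein heavy chain LOC655704, a motor of the sperm tail, had 19.1, 4.94 and 14.4 CPM in fat body and 22.3, 33.8 and 7.09 CPM in tubules, against 51.3, 51.6 and 145 CPM in whole body. It fell by 2.33 (SE 0.55, adjusted p = 0.00899).

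Cytosol aminopeptidase LOC663523, one of the most abundant lower genes by TPM, followed the same libraries. It had 2279, 233 and 809 CPM in fat body and 1252, 1661 and 602 CPM in tubules, against 2552, 2697 and 5322 CPM in whole body. Its pooled change of -1.63 (SE 0.59, adjusted p = 0.0463) was lost without control replicate 3 (-1.20, adjusted p = 0.16), and also without either other control, without fat body replicate 3 and without any 1 of the tubule libraries. Fibrous sheath CABYR-binding protein-like (LOC107397718), named after a sperm tail protein of mammals, had 3.27, 1.36 and 1.69 CPM in fat body and 7.75, 2.60 and 0.802 CPM in tubules, against 102, 90.1 and 102 CPM in whole body. In contrast to the aminopeptidase it was level over the controls, and it fell by 5.12 (SE 0.54, adjusted p = 0.000262).

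**Figure D5:**
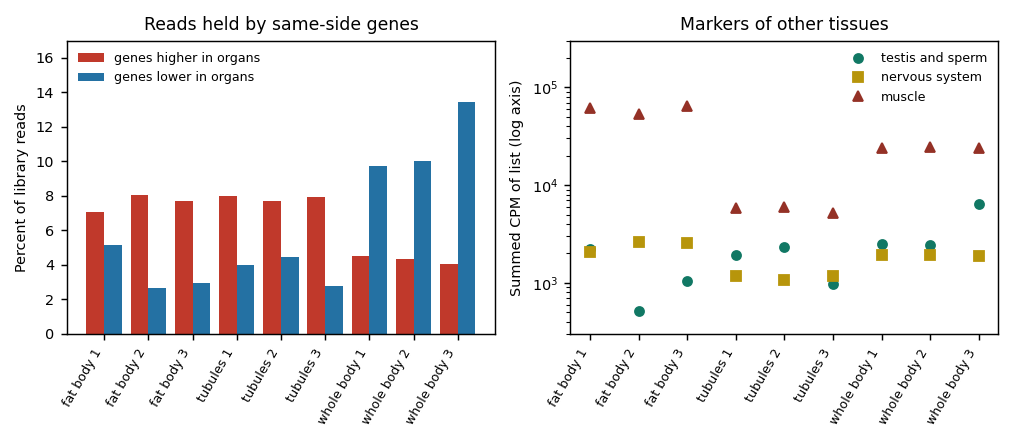
Left, percent of all library reads held by the 615 genes higher (red) and the 1008 genes lower (blue) in both organs, per library; right, summed CPM of 3 marker lists on a log axis. Whole body replicate 3 has the most reads in lower genes (13.4%) and the highest testis sum (6376 CPM), and the fat body libraries have the highest muscle sums.

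The respiratory chain list had a median pooled log2 fold change of -0.07, against -0.14 for all genes tested. The median of the glycolysis and tricarboxylic acid cycle list was -0.27. Of 27 respiratory chain genes 3 were higher and 6 lower in both organs, and of 19 genes of glycolysis and the tricarboxylic acid cycle 1 was higher and 6 were lower, or 3 without control replicate 3. Under other scalings the higher ones dropped to 0 in both lists, and 5 to 12 and 5 to 9 were lower. NADH dehydrogenase subunit 1 (KEF75_p01), a subunit of complex I encoded in the mitochondrial genome, had 2938, 3208 and 2384 CPM in fat body and 1870, 2990 and 1764 CPM in tubules, against 4664, 6927 and 5204 CPM in whole body. It fell by 1.16 (SE 0.20, edgeR adjusted p = 0.00232), with no overlap between organs and controls, as required of every named gene. Glutamyl aminopeptidase (LOC103314340), a membrane peptidase of the gut list, had 0.533, 0.511 and 0.472 CPM in fat body and 3.05, 6.13 and 4.28 CPM in tubules, against 20.1, 14.9 and 13.7 CPM in whole body. It fell by 3.42 (SE 0.25, adjusted p = 5.99e-05). In that list of 72 digestion genes 5 were higher and 8 lower, or 5 lower without control replicate 3.

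With the 6 organ libraries fitted as 1 group, 7 of the 21 named lower genes no longer passed. These were LOC657849 (adjusted p = 0.0713), LOC655704 (0.113), LOC103314340 (0.151), LOC663523 (0.204), LOC662134 (0.191), LOC660964 (0.124) and KEF75_p01 (0.137).

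In the other lists the numbers on each side were small. Of 30 tubule markers 4 were higher and 3 lower, and the 4 dropped to 0 under another scaling. Of 29 proteasome and ubiquitin genes 7 were higher and 4 lower, with as few as 2 higher under other scalings, and of 14 genes of translation 4 were higher and 3 lower. Of 47 cell cycle genes 1 was higher and 3 lower, or 1 lower without control replicate 3, and of 36 immune genes 2 were higher and 1 lower, or 4 higher without that library. Of 26 ribosome biogenesis genes 0 were higher and 1 lower, or 0 lower without that library, of 6 apoptosis genes 1 was higher and 0 lower, and of 4 ovary genes none lay on either side. Of 12 genes of juvenile hormone and ecdysone 3 were higher and 3 lower, with as few as 1 higher under other scalings.

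Lying on one side of the controls did not make the 2 organs alike. Fat body minus tubules, a comparison the rule did not use, was called in 79.8% of all genes tested, higher in fat body in 38.8% and lower in 41%. Among the 615 higher genes, 187 were higher in fat body than in tubules, 191 were lower and 237 were not told apart. Among the 1008 lower genes the numbers were 155, 207 and 646. A gene at one side of the control mean in both organs has less room to differ between them than a gene whose organs lie on opposite sides, so the smaller shares among these genes follow in part from the rule.

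Same-side genes that are neighbours in RefSeq's order formed 134 runs of 2 or more in one direction, of which 17 held 3 or more and the longest held 6. Of 1450 same-side genes that could be placed, 92 higher and 199 lower genes were in such runs. The run of 6 lower genes holds a pair of odorant-binding protein 19d genes (LOC100142425 and LOC100141522), 2 uncharacterized genes and the eye channels transient receptor potential protein (LOC657097) and its like (LOC657016). A run of 3 higher genes holds charybde (LOC656367), scylla (LOC656202) and a second charybde gene (LOC655953), whose Drosophila namesakes restrain growth under low oxygen. Scylla had 79.7, 78.2 and 80.1 CPM in fat body and 154, 156 and 124 CPM in tubules, against 36.2, 44.2 and 47.7 CPM in whole body. How often such runs arise without regard to direction was not tested.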

How the data were processed

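RNA was measured in 9 libraries of 3 groups, as 1 table of 5467 genes that the authors deposited. Its columns, per the file headers, are an expected count for each gene in each library, a signal the authors normalized with DESeq, the authors' FPKM and TPM values, and the authors' log2 fold change of 3 comparisons. Reads were aligned to assembly Tcas5.2, per the labels' protocols, and the submitters' processing notes list Trimmomatic 0.32. Which aligner and counter were used is not given in the sources used here.

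Library totals were recovered from count, FPKM and length. The rounded expected counts went into edgeR 4.0.16 (R 4.3.3): filterByExpr (109 genes left out), TMM factors, all 9 libraries in 1 quasi-likelihood fit, no covariate, and a contrast of the mean of both organs minus control. P-values were adjusted by Benjamini-Hochberg over 5358 genes, and a gene passed at 0.05. The SE is the size of a log2 fold change over the root of F, which may be too small at few counts. The script was tested on simulated counts. DESeq2 1.42.0 was an alternative.

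The members and the 30 gene lists, text patterns on the deposited descriptions, were chosen with earlier results of these data known, and 173 text matches that did not belong were removed. Named genes were on one side under all 5 scalings, did not overlap the controls, passed the pooled test and had a description. Of these the text names the 8 per direction with the largest change in the weaker organ (mean CPM above the median), the 3 per direction with the highest mean TPM, and the 1 with the largest such change per list and direction with 3 or more such genes: 17 higher and 21 lower. Other genes given with values, marked or not, should be read as chosen after their values were seen, apart from those at the edge of the rule. Of 5467 identifiers 5090 matched RefSeq genes of icTriCast1.1, used for order only. Replicate pairs differed beyond sampling noise.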

Additional observations from a re-analysis of the deposited data

Results flagged for a closer look

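In 13 of the 38 named genes the change against whole body differed between the organs by edgeR's test of fat body minus tubules (adjusted p under 0.05), while 25 were not told apart. In 12 of the 13 fat body lay below tubules, in a table where 41% of all genes were called in that direction. Among genes higher in both organs, the log2 difference was -6.77 for cathepsin L1 LOC660551, -2.83 for the small heat shock gene LOC664276, -2.28 for the Tret1-2 homolog LOC655291, -1.61 for P450 6a2 LOC656770, -1.52 for the multidrug resistance-associated protein LOC657102 and -1.01 for LOC658492 (initiation factor 6-like). The exception was synaptic vesicle glycoprotein 2B (LOC661311), which was higher in fat body by 0.88. Among genes lower in both organs, it was -3.76 for LOC660329 (microtubule-associated protein 1B), -3.12 for glutamyl aminopeptidase LOC103314340, -2.45 for troponin C LOC659336, -1.31 for Cyp4g7, -1.28 for the carboxylesterase LOC660964 and -1.20 for Cyp4g14. The adjusted p ran between 2.32e-06 for LOC655291 and 0.0308 for LOC661311.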

How the results depend on the processing

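With the 6 organ libraries as 1 group, 15 genes passed as higher and 59 as lower, because by construction the difference between organs enters the error, and 23 of the 38 named genes passed. With library totals alone 759 genes were called higher and 396 were on the higher side; asking for no overlap left 578 on the lower side. The upper-quartile factors and the authors' size factors divided the calls as 838 higher to 1909 lower and 866 to 1885. RLE factors divided them as 1236 to 1279, and the cause of these shifts was not tested. Leaving out 1 library at a time gave 816 to 1296 genes called higher, 906 to 1715 called lower (906 without control replicate 3), 615 to 753 on the higher side, 774 to 1091 on the lower side, and 1902 to 2090 higher and 2127 to 2443 lower for fat body minus tubules. The alternatives for that comparison and for the gene lists were chosen after seeing the data. Replicate numbers did not pair the libraries (correlations of same-numbered deviations -0.46 to 0.39), and a replicate block gave 969 higher and 1158 lower. Of 684 values of named genes under alternatives, 658 kept direction and call, 26 lost the call and 0 reversed. The naming rule had asked for one side under every scaling, no overlap with the controls and a pass in the pooled test. Direction under the other scalings was thus fixed by the choice of genes, and that choice also favoured keeping it under the remaining alternatives. The 658 kept and 0 reversed values are therefore no separate support for these genes. Of the 26, 11 were outside the fit of 1 group, all in LOC663523 and LOC662134, both of which also lost the call with the replicate block (adjusted p = 0.0682 and 0.0564). Genes the authors did not list are not analysed here, and under 10 reads per organ, as for LOC659392 and LOC657849, a fold is poorly fixed.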

Other observations

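Some families that share a deposited description lay wholly or mostly on one side; they were picked after their values were seen. All 6 genes named sodium/hydrogen exchanger were lower in both organs, with 4 passing the pooled test, as were 7 of 11 choline transporter-like genes, all 7 of which passed. Over all genes tested, 18.8% were on the lower side and 27% passed as lower. Of 7 genes named potassium/sodium hyperpolarization-activated cyclic nucleotide-gated channel, 6 were lower and 4 passed. On the higher side were all 3 MFS-type transporter SLC18B1 genes, which passed and are adjacent in RefSeq's order. Over all genes tested, 11.5% were on the higher side and 22% passed as higher. How these families stood without control replicate 3 was not counted.

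Single genes outside the naming rule, also picked after their values were seen, include juvenile hormone acid methyltransferase (Tcjhamt), an enzyme of the last steps of the hormone's synthesis in the corpora allata. It had 1.599, 0.341 and 1.42 CPM in fat body and 0.569, 0.216 and 1.003 CPM in tubules, against 7.58, 10.4 and 8.46 CPM in whole body. Laccase 2 (Lac2), the enzyme that tans beetle cuticle, had 431, 602 and 601 CPM in fat body and 1328, 1642 and 1583 CPM in tubules, against 158, 165 and 168 CPM in whole body. Sterol regulatory element-binding protein 1 (LOC663039), a regulator of lipid synthesis genes, was higher in both organs by 1.21 ± 0.14 (edgeR adjusted p = 0.000367), while 6 of 7 fatty acid synthases were lower.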
